A study of Mus musculus with 4 samples.

Results

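The promoters of 10 germline genes, Dazl, Ddx4, Mael, Sycp3, Sycp1, Stk31, Asz1, Tex101, Dpep3 and Mov10l1, were followed through a CpG methylation dataset of mouse embryonic stem (ES) cells. They are 10 of 22380 protein-coding genes in the GENCODE vM1 annotation of the mm9 genome. A promoter was taken as 1 kb on either side of the 5′ end of the gene, and a CpG site was used where it was covered by at least 10 reads. Of 193 such sites near the 10 genes, 104 reached 10 reads in all 4 libraries, out of 400195 sites genome-wide, and these 104 sites gave the comparisons. They lay in 8 of the 10 promoters, and 7 promoters held at least 3 of them.

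These genes serve the germ line. Dazl and Ddx4 encode RNA-binding proteins of germ cells, Sycp1 and Sycp3 build the synaptonemal complex that joins homologous chromosomes in meiosis, and Mael, Asz1 and Mov10l1 act in the piRNA pathway that silences retrotransposons in the male germ line. Many germline genes have CpG-rich promoters that are methylated around implantation and kept silent in somatic cells by that methylation. The 2i medium inhibits MEK and GSK3 and lowers DNA methylation in ES cells, and Vitamin C is a cofactor for the TET enzymes that oxidize 5-methylcytosine, with germline promoters among the best known places where it acts.

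The assay was RRBS-seq: MspI cuts genomic DNA at CCGG, and the CpG-rich fragments are sequenced after bisulfite conversion. A WT and a Chr4-cl KO line were cultured in serum-containing media with LIF or for 1 week in 2i media with Vitamin C. The KO cells lack a cluster of KRAB zinc finger protein (KRAB-ZFP) genes on chromosome 4, deleted with CRISPR/Cas9. Per the methods, they were derived from mice of a mixed strain background that included B6, with a tamoxifen-inducible Cre (cre/ERT) at the Gt(ROSA)26Sor locus. The labels name a WT and a KO line without saying how many clones were used. Each of the 4 groups was 1 library, so no difference has a replicate check, and every test compares libraries rather than conditions.

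Read counts summed over CpG sites ran from 42672691 to 90649194 per library, where a read counts once for each site it covers. The lowest sum was in KO cells in 2i + Vitamin C, where sites with at least 10 reads had a median coverage of 25 against 42 to 50 in the other 3. Within the deleted cluster, such sums were 83433 and 102482 in the WT libraries and 815 and 1124 in the KO libraries, which matches the labels. All intervals given here are 95% and cover the sampling of reads alone. Neighbouring CpG sites on 1 MspI fragment share reads, and PCR copies cannot be told from separate molecules, so the intervals are too narrow.

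The stretches that carry the measured sites are shown to place the values that follow. For 6 genes, the stretch that spans the covered sites within 250 bp upstream of the 5′ end is given, with a few bases beside them. It is taken from the mm9 genome in the direction of the gene. Covered sites inside the genes are not shown. Capital letters mark CpG sites covered by at least 10 reads in all 4 libraries, and lower case CG pairs were not covered to that depth.
Dazl, chr17:50432925-50432948, - strand: cccggggCGCGcagcccaCGcctc
Ddx4, chr13:113442603-113442660, - strand: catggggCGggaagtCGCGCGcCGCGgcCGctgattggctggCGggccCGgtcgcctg
Mael, chr1:168168896-168169076, - strand: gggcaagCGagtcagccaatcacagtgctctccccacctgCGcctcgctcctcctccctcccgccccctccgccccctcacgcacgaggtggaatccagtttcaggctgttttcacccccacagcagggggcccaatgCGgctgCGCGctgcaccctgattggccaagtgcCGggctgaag
Stk31, chr6:49345467-49345524, + strand: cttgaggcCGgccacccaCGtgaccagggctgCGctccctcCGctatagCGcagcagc
Asz1, chr6:18059062-18059166, - strand: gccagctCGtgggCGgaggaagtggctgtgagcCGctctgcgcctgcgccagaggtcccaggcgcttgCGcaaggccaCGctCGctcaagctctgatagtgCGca
Tex101, chr7:25457070-25457260, - strand: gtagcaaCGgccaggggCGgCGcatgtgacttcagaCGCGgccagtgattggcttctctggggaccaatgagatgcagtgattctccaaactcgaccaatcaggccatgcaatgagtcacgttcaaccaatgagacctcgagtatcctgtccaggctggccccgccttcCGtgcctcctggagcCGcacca

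The Ddx4 and Stk31 stretches are 58 bases each, and 9 and 5 covered sites stand in them. The Asz1 stretch of 105 bases ends at the 5′ end and holds 7 covered sites, and the fifth capital pair, at 26 bp upstream, is referred to again below as the site that stayed at 0.

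Over the 300 bases from 250 bp before to 50 bp after the 5′ end, member promoters held 12 (Dpep3) to 38 (Ddx4) CpG pairs. Their median of 21.5 compared with 11 over 22375 protein-coding promoters. It also compared with 6 over the 392 promoters that had a mean methylation of at least 50% in WT serum. The ratio of observed to expected CpG had medians of 0.77, 0.53 and 0.31 in the same 3 sets. The members thus stood nearer to all covered promoters, with a median ratio of 0.77, than to the methylated ones. The letters CACGTG, the E-box that many basic helix-loop-helix proteins bind, stood in 6 of the 10 member promoters (Ddx4, Mael, Sycp3, Sycp1, Stk31 and Mov10l1), which is 60%. Of all protein-coding promoters 7.78% held them, and of those with at least 3 covered sites 10.3%. The letters TCCCGC or their complement, as bound by E2F6, stood in 4 of 10 (40%), beside 38.3% of the promoters with at least 3 covered sites. Both strands were searched, and a match is a description of the letters alone. Sycp3 held 2 E-boxes, 46 and 25 bp upstream. Of the E-box matches, that of Stk31, whose first base lies 120 bp upstream, holds a CpG site covered in all 4 libraries. That site had 2.44% of 41 reads methylated in WT serum and 0% of 43 in KO serum, and 1.23% of 163 and 0% of 26 in 2i + Vitamin C, so it was at or near 0 throughout (Wilson upper limits of 12.6%, 8.20%, 4.36% and 12.9%).

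In serum, 7 of the 8 promoters with shared sites had a mean methylation of 10.2% to 81.3% in WT cells, and Sycp1 had 72.1% at a single site. The median over 11362 protein-coding promoters with at least 3 sites was 1.40%, and 91.8% to 98.3% of them lay below each of the 7 members. A set of 12 promoters of genes used in every cell, measured the same way, had a median of 1.30%, with a range from 0.299% to 6.66%. The description of these genes as silenced by DNA methylation was therefore met to unequal degrees. Tex101 and Asz1 were above 50% in WT serum and Dazl was at 32.3%, while Sycp3, Mael, Ddx4 and Stk31 lay between 10.2% and 17.4%. The Sycp3 value comes from sites at least 270 bp inside the gene. Sycp1 was above 50% at its single shared site, 599 bp upstream, but its 19 sites covered in WT serum had a mean of 24.7%. Mov10l1, which had no shared site, had a mean of 84.4% over 4 sites in WT serum. RNA of these cells was not analysed here, so whether any of them was silent was not tested.

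**Figure D1:**
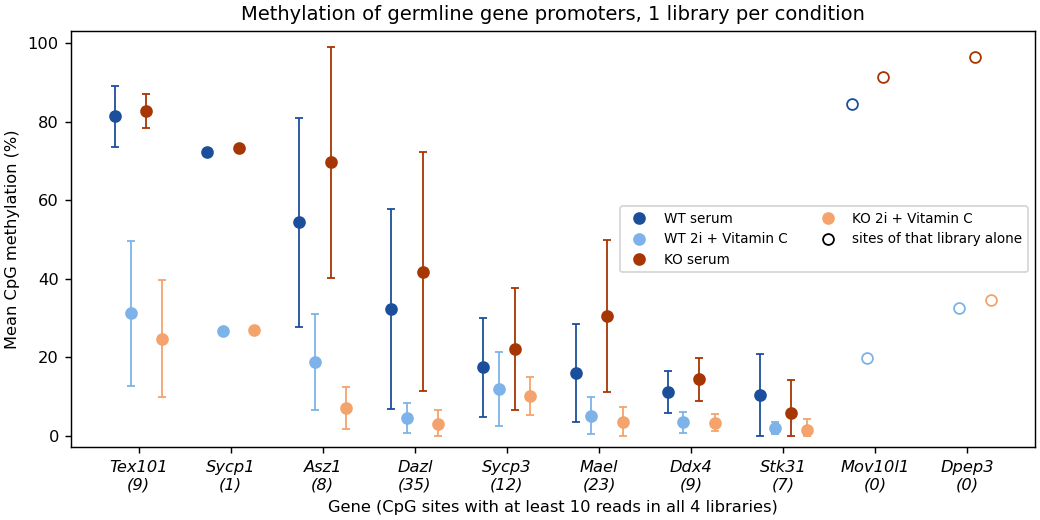
Mean CpG methylation (%, vertical axis) of each gene promoter (horizontal axis, with the number of shared CpG sites) in the 4 libraries. Filled points are means over sites with at least 10 reads in all 4 libraries, bars are the SD across those sites cut at 0, and open points are means over the sites of that library alone. All 8 promoters with shared sites were lower in 2i + Vitamin C than in serum in both genotypes, from 81.3% to 31.2% for Tex101 in WT cells and from 10.2% to 1.95% for Stk31.

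Growth in 2i + Vitamin C went with lower methylation at all 8 promoters in both genotypes. In WT cells, 45 of the 104 sites (43.3%) were lost and 0 were gained, where a lost or gained site is one with a change of at least 20 percentage points and a p below 0.05 by Fisher's exact test after Benjamini-Hochberg adjustment over all sites. Genome-wide, 26% of sites were lost and 0.149% were gained by the same rule. In KO cells, 54 member sites (51.9%) were lost and 0 were gained, beside 29.4% and 0.029% of all sites. The median change over the member sites was -13.0 percentage points in WT and -25.2 in KO cells, against -1.08 and -3.53 over all sites. With each promoter counted once, the mean change was -23.9 percentage points in WT and -32.5 in KO cells. Coverage was not equal, and the median coverage of all shared sites was 56 and 88 reads in WT and 74 and 41 reads in KO cells, each time serum first. Of the 7 members with at least 3 sites, 3 in WT and 4 in KO cells were lower by at least 20 percentage points. That change was seen at 4.52% and 6.28% of the 11362 promoters. Most promoters start near 0 and cannot fall by 20 points, so the members are better read beside promoters that were methylated in serum. Of 392 promoters with at least 50% in WT serum, 98.7% were lower by at least 20 points in WT cells, with a median change of -47.3 points, and the members above 50% with at least 3 sites, Tex101 and Asz1, changed by -50.1 and -35.6 points.

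**Figure D2:**
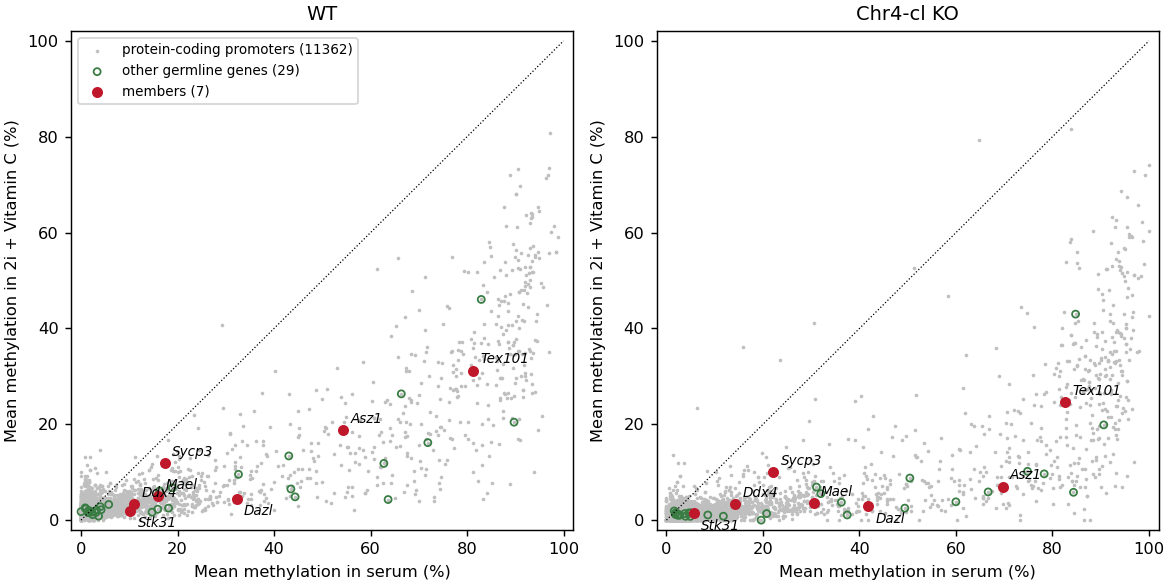
Mean promoter methylation in serum (%, horizontal axis) against 2i + Vitamin C (%, vertical axis) for 11362 protein-coding promoters with at least 3 shared CpG sites (grey), 29 other germline genes (green rings) and 7 members (red), in WT cells on the left and Chr4-cl KO cells on the right. The dotted line marks equal values, and the members lie below it in both panels, with Tex101 at 81.3% and 31.2% in WT cells and Dazl at 41.8% and 2.88% in KO cells.

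Dazl (chr17:50418719-50432924, minus strand), which binds the 3′ ends of germ cell mRNAs and promotes their translation, had the most shared sites, 35 on 4 MspI fragments. Its mean methylation was 32.3% in WT serum and 4.42% in WT 2i + Vitamin C, and 41.8% and 2.88% in KO cells. The change was -27.9 points (interval -30.5 to -25.3) in WT and -38.9 (-41.0 to -36.8) in KO cells, and 20 and 22 of the 35 sites were lost. Methylation was not even along the window. The 23 sites from 16 bp upstream to 480 bp inside the gene had means of 46.6% in WT serum and 60.9% in KO serum. In 2i + Vitamin C they had 6.02% and 3.86%. The 12 sites from 492 to 624 bp inside the gene had 4.78% and 5.22% in serum, WT first, and then 1.37% and 1.02%. All of the lost Dazl sites lay in the methylated block over the 5′ end, and 0 lay in the stretch beyond it, which was low in every library. Sites in that stretch reached at most 13.3% in WT and 13.8% in KO serum, so none of them could fall by 20 points. The largest change in WT cells was at an intronic site 213 bp inside the gene, from 70.0% of 20 reads (interval 48.1% to 85.5%) to 0% of 16 (0% to 19.4%), with an adjusted p of 7.1e-05 by Fisher's exact test. In KO cells the same site had 72.2% of 18 reads and 14.0% of 43. The smallest change was at 579 bp inside the gene, where 2.80% of 143 and 3.07% of 163 reads were methylated in WT cells.

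Ddx4 (chr13:113388541-113442518, minus strand), the VASA helicase that marks germ cells, had 9 shared sites on 1 fragment from 134 to 93 bp upstream. Its mean methylation was 10.97% in WT serum, 3.34% in WT 2i + Vitamin C, 14.3% in KO serum and 3.28% in KO 2i + Vitamin C. The differences of -7.64 points (interval -9.95 to -5.33) and -11 (-13.5 to -8.55) had the same sign at 9 of 9 sites in both genotypes. A fall of the 20 points needed for a call was seen at 0 sites. In WT cells none could fall that far, since the highest site in serum stood at 19.2%. The highest in KO serum stood at 23.3%. In WT cells the largest change was at 99 bp upstream, from 19.2% of 99 reads to 5.36% of 168, and the smallest at 124 bp upstream, from 4.04% of 99 to 1.18% of 170. Another site 252 bp upstream, on another fragment, had 50% of 16 reads methylated in WT serum, 12.7% of 55 in WT 2i + Vitamin C and 66.7% of 33 in KO serum, and it had 0 reads in KO 2i + Vitamin C. The low mean of Ddx4 in serum is thus that of a single fragment.

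Mael (chr1:168131516-168168875, minus strand), a protein of the germ cell nuage needed for transposon silencing, had 23 shared sites on 3 fragments. Its mean was 16.0% in WT serum and 5.09% in WT 2i + Vitamin C, and 30.5% and 3.54% in KO cells. The change was -10.9 points (interval -13.2 to -8.55) with 6 sites lost in WT, and -27.0 points (-29.6 to -24.4) with 12 sites lost in KO cells. Sites around the 5′ end were low, and those on both sides were higher. The fragment from 169 to 326 bp inside the gene had means of 23.9% in WT and 42.8% in KO serum, against 4.47% and 5.23% in the other medium. The largest change in WT cells was at the first capital pair of the sequence above, 193 bp upstream, where 50% of 204 reads were methylated in serum and 12.9% of 256 in 2i + Vitamin C (adjusted p = 8.8e-17, Fisher's exact test). The KO libraries had 55.8% of 260 and 7.79% of 154 reads at this site. The smallest change was at 72 bp inside the gene, in the UTR, with 0% of 39 and 0% of 52 reads in WT cells (Wilson upper limits 8.97% and 6.88%).

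Asz1 (chr6:18000964-18059061, minus strand), an ankyrin repeat protein of the nuage, had 8 shared sites on 1 fragment from 97 bp upstream to 6 bp inside the gene. Its mean was 54.3% in WT serum, 18.7% in WT 2i + Vitamin C, 69.7% in KO serum and 6.99% in KO 2i + Vitamin C. The change was -35.6 points (interval -41.4 to -29.8) in WT and -62.7 (-67.0 to -58.4) in KO cells, with 7 of 8 sites lost in both. The eighth site, 26 bp upstream, had 0 methylated reads of 37 and 81 in WT and of 88 and 34 in KO cells (Wilson upper limits 9.41%, 4.53%, 4.18% and 10.2%), although the sites 36 and 22 bp upstream were methylated in serum. The site 36 bp upstream had the largest change in WT cells, from 89.2% of 37 reads to 32.1% of 81 (adjusted p = 5.6e-08, Fisher's exact test), and it had 93.2% of 88 and 11.8% of 34 reads in KO cells. Without the site at 0, the means of Asz1 were 62.1% and 21.4% in WT and 79.6% and 7.98% in KO cells. The site at 0 was placed by the mm9 genome, and whether these cells carry a CpG there was not tested.

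Mov10l1 (chr15:88813339-88885582, plus strand), the RNA helicase that starts piRNA processing, had 4 covered sites, 541 to 754 bp inside the gene, in 3 libraries and 0 in KO 2i + Vitamin C. Its mean was 84.4% in WT serum, 19.7% in WT 2i + Vitamin C and 91.4% in KO serum, with median coverages of 16, 39 and 11.5 reads. The change in WT cells was -64.7 points, and in KO cells it could not be measured.

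Sycp1 (chr3:102622422-102740023, minus strand), the transverse filament of the synaptonemal complex, had 1 shared site, 599 bp upstream, with deep coverage. Of its reads 72.1% of 380 were methylated in WT serum and 26.7% of 412 in WT 2i + Vitamin C, and 73.2% of 410 and 26.9% of 320 in KO cells. The losses of 45.4 and 46.3 points differed little (adjusted p = 2.1e-36 in WT and 2.4e-34 in KO cells, Fisher's exact test). More sites were covered in both WT libraries, 19 with the shared site, of which 11 were also covered in KO serum. Over these 19 sites the mean went from 24.7% in serum to 6.47% in 2i + Vitamin C, a change of -18.2 points. At 6 bp inside the gene, within letters of the E2F6 type, 32.7% of 110 reads were methylated in WT serum, 0% of 251 (Wilson upper limit 1.51%) in WT 2i + Vitamin C and 49.5% of 95 in KO serum, and KO 2i + Vitamin C had 6 reads there. The 5′ end of Sycp1 had lower values than the distal site in WT cells in both media.

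Sycp3 (chr10:87922314-87935981, plus strand), a protein of the axial and lateral elements, had 12 shared sites on 3 fragments, all in the first part of the gene body from 270 bp onward. Its window lies within Chpt1, a gene on the opposite strand that encodes a choline phosphotransferase. Its mean was 17.4% in WT serum and 11.9% in WT 2i + Vitamin C, and 22.1% and 10.1% in KO cells. It was the one of the 8 with the smallest change in WT cells, -5.53 points (interval -8.53 to -2.52), with 1 site lost, and the change in KO cells was -12.1 (-14.8 to -9.37), with 2 lost. The value in 2i + Vitamin C was 68.2% of that in serum in WT and 45.4% in KO cells. For the other 6 members with at least 3 sites this share ran from 13.7% (Dazl) to 38.4% (Tex101) in WT and from 6.90% (Dazl) to 29.9% (Tex101) in KO cells. The largest change of a Sycp3 site in WT cells was at 300 bp, from 44.2% of 52 reads to 24.2% of 91 (adjusted p = 0.048, Fisher's exact test), and the smallest was at 995 bp, with 6.12% of 49 and 6.77% of 133. Its 5′ end, where both E-boxes lie, was not covered in 3 of the 4 libraries.

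Stk31 (chr6:49345603-49419500, plus strand), a testis kinase with a Tudor domain, had 7 shared sites and the lowest mean of the 8 in both serum libraries. Its mean was 10.2% in WT serum and 1.95% in WT 2i + Vitamin C, and 5.62% and 1.39% in KO cells. The changes were -8.29 (interval -11.8 to -4.75) and -4.24 points (-8.15 to -0.330), with 1 site lost in each. That site, in the intron at 141 bp, had 31.9% of 47 and 2.36% of 127 reads methylated in WT cells (adjusted p = 1.4e-06, Fisher's exact test) and 22.0% of 41 and 0% of 40 (Wilson upper limit 8.76%) in KO cells. The smallest change in WT cells was at 87 bp upstream, with 2.44% of 41 and 1.23% of 162 reads. The 5 upstream sites printed above had 2.27% to 12.2% in WT serum.

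Tex101 (chr7:25453031-25457069, minus strand), a GPI-anchored protein of male germ cells needed for sperm function, had the highest mean in WT serum of the 8 promoters. Its 9 shared sites, from 183 bp upstream to 20 bp inside the gene, had means of 81.3% in WT serum, 31.2% in WT 2i + Vitamin C, 82.6% in KO serum and 24.7% in KO 2i + Vitamin C. All 9 sites were lost in both genotypes, with changes of -50.1 points (interval -52.2 to -48.1) and -57.9 (-60.4 to -55.4). In serum the sites spanned a narrow range, from 70.4% to 92.0% in WT cells. In 2i + Vitamin C they spread from 9.64% to 54.0%. The largest change in WT cells was at 6 bp upstream, from 76.2% of 303 reads to 11.4% of 396 (adjusted p = 1.6e-69, Fisher's exact test), and the smallest was at 170 bp upstream, from 89.7% of 300 to 54.0% of 396 (adjusted p = 5.1e-24, Fisher's exact test). The KO libraries had 80.9% and 9.32% at the first of these sites and 90.0% and 48.7% at the second. The 4 sites from 173 to 152 bp upstream kept 39.7% to 54.0% in WT 2i + Vitamin C, while the site 183 bp upstream, on the same fragment, had 13.1%. In the sequence above, these 4 are the second to the fifth capital pairs, and the site at 183 bp is the first.

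Dpep3 (chr8:108497420-108503319, minus strand), a membrane dipeptidase of the testis that binds Tex101, had no site with 10 reads in WT serum. It had 4 sites with a mean of 32.5% in WT 2i + Vitamin C, 5 with 96.5% in KO serum and 10 with 34.5% in KO 2i + Vitamin C. Over the 5 sites shared by the KO libraries the mean went from 96.5% to 39.0%, a change of -57.5 points, at median coverages of 20 and 10 reads over the sites of each library.

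**Figure D3:**
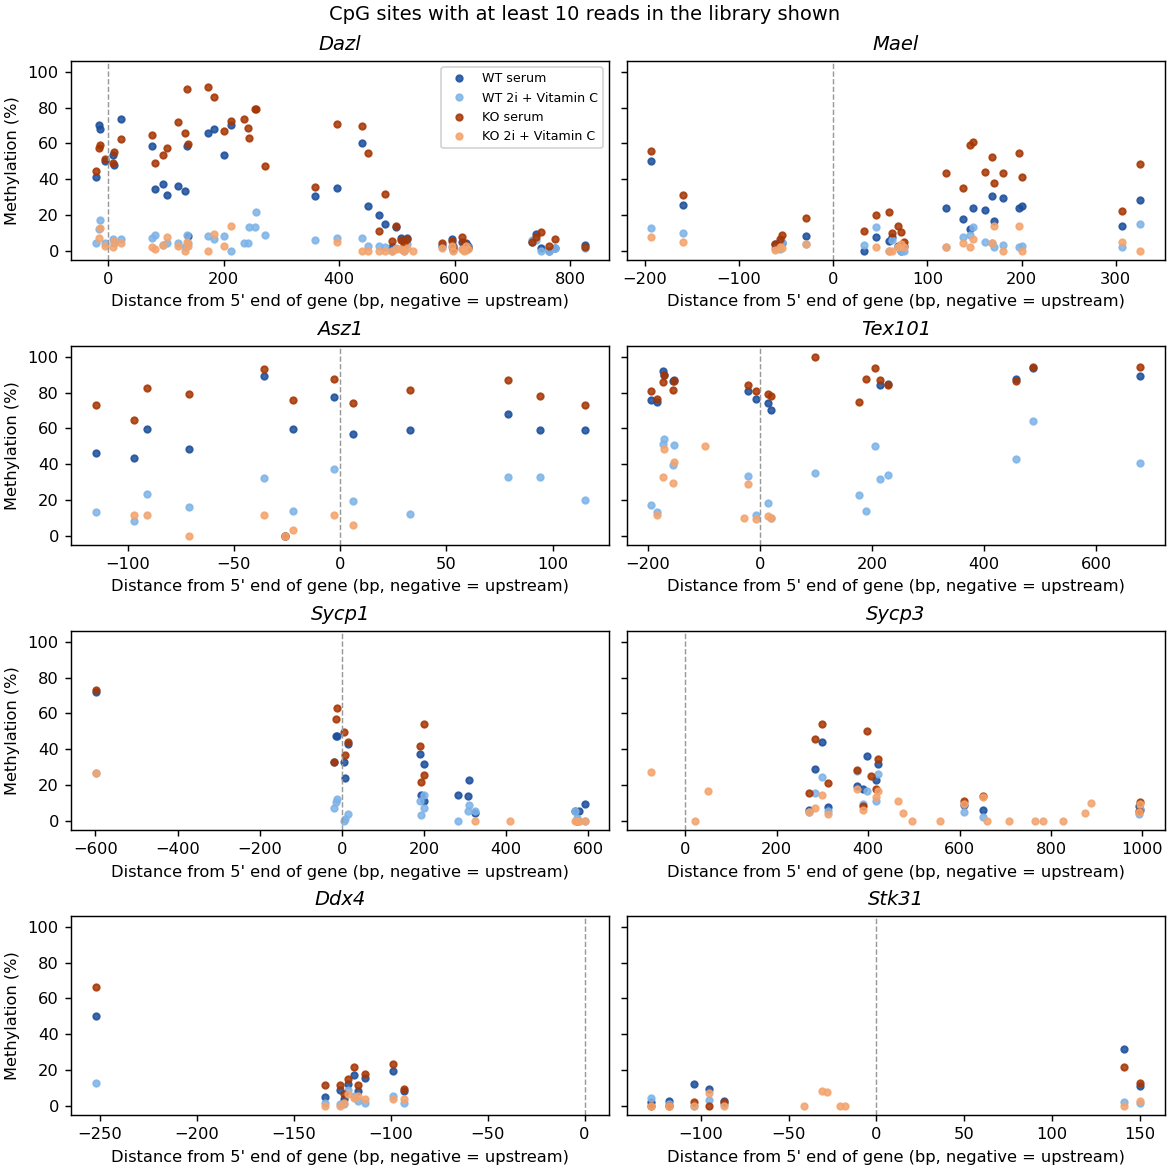
Methylation (%, vertical axis) of every CpG site with at least 10 reads in a library, by distance from the 5′ end of the gene (bp, horizontal axis, dashed line at 0), for 8 genes and the 4 libraries. Serum values of Dazl stand high up to 480 bp and low beyond it, Tex101 sites stay at 39.7% to 54.0% between 173 and 152 bp upstream in WT 2i + Vitamin C, and the Asz1 site 26 bp upstream is at 0 in every library.

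The genotypes were compared next within each medium. In serum, 80 of the 104 member sites were higher and 23 were lower in KO cells, with a median difference of 4.27 percentage points beside 1.15 over all sites. By Fisher's exact test, Benjamini-Hochberg adjusted, 3 sites (2.89%) were gained and 0 were lost in KO serum, where 1.79% of all sites were gained and 0.115% were lost. The share gained at the members is thus close to the genome-wide share. The differences of promoter means ran from -4.61 points (Stk31, interval -9.02 to -0.203) to 15.4 (Asz1, 9.70 to 21.0). Mael was higher by 14.6 points (11.7 to 17.4) and at 23 of 23 sites, Dazl by 9.50 (6.41 to 12.6), Sycp3 by 4.76 (1.58 to 7.93) and Ddx4 by 3.31 (0.329 to 6.28). The intervals of Tex101, at 1.32 points (-0.661 to 3.31), and of Sycp1, at 1.07 (-5.15 to 7.28) for its 1 shared site, included 0. Over the 11 Sycp1 sites covered in both serum libraries the difference was 9.55 points, with a half-width of 3.66 for the interval, and over 13 sites with at least 5 reads in all 4 libraries it was 8.79 with a half-width of 5.08, so both of these intervals excluded 0. No member reached a difference of 20 points, as 0.845% of the 11362 promoters did in this direction. The Mael and Asz1 differences exceeded those of 98.1% and 98.3% of these promoters, and that of Stk31 exceeded only 0.475%. Most of these promoters were near 0 in serum in both lines, so the ranks say little about methylated promoters. Among 621 promoters with at least 20% in WT serum, the median difference was 6.23 points, and 10.8% were higher by at least 20 points. Among the 392 with at least 50%, these values were 4.92 points and 6.38%.

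The 3 gained sites lay in Mael and Asz1. At 145 bp inside Mael, in the coding exon, 12.0% of 25 reads were methylated in WT serum and 58.8% of 34 in KO serum (adjusted p = 0.011, Fisher's exact test). At 197 bp, also coding, the values were 23.6% of 72 and 54.4% of 90 (adjusted p = 0.0041, Fisher's exact test). At 71 bp upstream of Asz1, within the printed stretch, they were 48.6% of 37 and 79.1% of 91 (adjusted p = 0.029, Fisher's exact test). A Dazl site in the UTR at 138 bp had the widest gap, 8.33% of 12 reads against 59.4% of 32, and missed the threshold (adjusted p = 0.055, Fisher's exact test). Whether these differences belong to the deletion or to the line that carries it cannot be told apart with 1 library of each.

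In 2i + Vitamin C the median difference had the opposite sign. Of the 104 sites 69 were lower and 30 were higher in KO cells, with a median difference of -1.78 points beside -0.865 over all sites. By Fisher's exact test, Benjamini-Hochberg adjusted, 0 member sites were called in either direction, where 0.405% of all sites were lost and 0.0917% were gained, and 1 member site had an adjusted p below 0.05 with a smaller difference. The KO minus WT difference was -11.7 points for Asz1 (interval -16.2 to -7.31) and -6.49 for Tex101 (-9.05 to -3.92). Dazl differed by -1.54 points (-2.86 to -0.222). The intervals of Mael, Sycp3, Stk31, Ddx4 and Sycp1 included 0, and the widest of these bounds were -6.28 and 6.64 points, for Sycp1. Within 500 bp of the 5′ end, over 8 sites, the Sycp3 difference was -5.13 with a half-width of 2.91, in place of -1.81, and that interval excluded 0. No member was lower by 20 points, and 0.141% of the promoters were. The KO 2i + Vitamin C library was the shallowest, with 34 median reads at Asz1 sites and 28 at Stk31 sites, and the part of depth in these values was not tested.

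**Figure D4:**
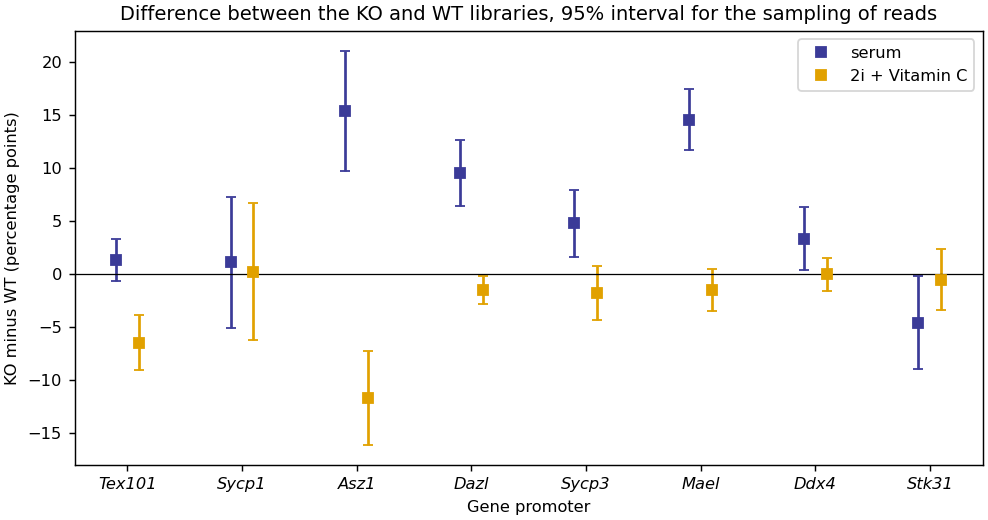
Difference in mean promoter methylation between the KO and WT libraries (percentage points, vertical axis) for 8 genes (horizontal axis), in serum (blue) and in 2i + Vitamin C (yellow), with 95% intervals for the sampling of reads as bars. Asz1 stands at 15.4 in serum and -11.7 in 2i + Vitamin C, and Mael at 14.6 and -1.55.

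The change between media was then compared between the genotypes. It was more negative in KO cells at 7 of 8 promoters. The KO change minus the WT change was -27.1 points for Asz1, -16.1 for Mael, -11.04 for Dazl, -7.81 for Tex101, -6.57 for Sycp3, -3.36 for Ddx4 and -0.890 for Sycp1. Stk31 had 4.05 points, and the mean over the 8 promoters was -8.60. Among 621 promoters with at least 20% in WT serum, the median change between media was -38.2 points in WT and -51.1 in KO cells. Among the 392 with at least 50%, it was -47.3 and -58.3 points. A larger fall in KO cells was thus not particular to the members. Site by site, a z test on the difference of the differences, adjusted by Benjamini-Hochberg, found a larger loss in KO cells at 5 member sites (4.81%), of which 2 were in Asz1 and 1 each in Dazl, Mael and Sycp3, and a smaller loss at 0. Genome-wide, 4.77% of sites had a larger loss and 0.204% a smaller one, so the members' share is close to that of the whole genome. The Asz1 site 71 bp upstream went from 48.6% to 16.3% in WT cells and from 79.1% to 0% of 34 reads (Wilson upper limit 10.2%) in KO cells, a difference of -46.8 points between the changes. The starting level in serum was higher in KO cells at 7 of the 8 promoters, and its part in the larger loss was not tested.

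Of 54 other genes of meiosis, the piRNA pathway and the germ line, 29 had at least 3 shared sites. Their median promoter methylation was 14.7% in WT serum and 2.56% in WT 2i + Vitamin C, and 19.6% and 1.52% in KO cells, beside 17.4%, 5.09%, 30.5% and 3.54% for the 7 members. In WT cells 10 of the 29 and in KO cells 13 were lower by at least 20 points in 2i + Vitamin C. The 6 with at least 50% in WT serum were all lower by at least 20 points in both genotypes. Fkbp6, a chaperone of the piRNA pathway, went from 89.7% to 20.4% in WT and from 90.6% to 19.9% in KO cells. Ctcfl, the testis paralog of CTCF, went from 71.9% to 16.2% and from 78.3% to 9.65%. Taf7l, a germ cell form of a TFIID subunit, went from 66.4% to 26.4% and from 74.8% to 10.2%. Brdt, the testis bromodomain protein, kept the most, with 82.9% and 46.1% in WT and 84.8% and 43.0% in KO cells. The testis tubulin genes Tuba3a and Tuba3b, whose near-identical copies can share reads, went from 63.6% to 4.30% and from 62.8% to 11.8% in WT cells. Members and listed genes thus overlapped in level and in change.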

How the data were processed

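RRBS-seq (MspI digestion, paired-end reads) was analysed for WT and Chr4-cl KO lines in both media, 1 library per group. Per the submitters' notes and methods, the authors used Trim Galore for trimming and Bismark for alignment to mm9, and joined both cytosines of a CpG dyad with a custom Perl script (versions not given in the sources used here). The deposited files give, per CpG dyad, the read count, the methylated read count and the methylated fraction, which follows from the counts. Removal of duplicate reads was not stated. The counts of 2 libraries (WT serum, KO 2i + Vitamin C) were deposited as 2 tables joined end to end, and the 332 and 830 entries at repeated positions were left out.

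A promoter mean is the mean of its site values, with intervals from the binomial variance of each site (Wilson intervals for single sites, 95%). Sites were compared by two-sided Fisher's exact test, Benjamini-Hochberg adjusted over 400195 sites (Python 3.11.15, scipy 1.17.1). Changes were compared between genotypes by a z test with 1 read added to each count, called at an adjusted p below 0.05. Simulated data had 200 of 50000 sites lowered by 40 points, drawn from sites at 50% or more in the library compared against. Of these, 66.5% (WT media), 48% (KO media), 55% (serum) and 47% (2i + Vitamin C) were called, and 38.5% by the z test. Of the unchanged sites 3, 3, 0, 2 and 4 were called, in the same order. In the data, 26% (WT) and 29.4% (KO) of sites were lost between media, a far larger share than was simulated. The simulated shares called are therefore not the power of the media tests. All members were named with their sites of largest and smallest WT change, and of the other germline genes at 50% or more in WT serum the 4 with the largest and the 4 with the smallest loss. Other sites and genes were named after their values were seen. The members and gene lists were chosen with earlier results of these data known. Alternatives varied the coverage minimum, site set, window, averaging, repeated positions and call rule.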

Additional observations from a re-analysis of the deposited data

Results flagged for a closer look

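Asz1 was marked because its difference between the genotypes pointed in opposite directions in the 2 media. KO minus WT was 15.4 percentage points in serum and -11.7 in 2i + Vitamin C, over 8 CpG sites of 1 MspI fragment. Of the 8 sites, 7 were higher in KO serum. In the other medium 6 were lower in KO cells and 1 was higher. The difference between these 2 promoter values was not tested, since each group is 1 library. Site by site, 2 of the 8 Asz1 sites had a larger loss in KO cells by the z test. The median coverage of the Asz1 sites was 37 and 81 reads in WT cells and 88.5 and 34 in KO cells, each time serum first, and its part in the result was not tested.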

How the results depend on the processing

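Of 94 recomputed summary values, 76 kept their size and 18 moved by more than their interval for read sampling or, for counts, by over 1.5 times, and 0 reversed. The 2 kb window and the kept first rows of repeated positions gave the same 104 sites. They returned every value unchanged, also for single promoters, and so could only add to the values kept. Of 224 values for single promoters, 15 moved, and 0 whose interval excluded 0 changed sign. The Sycp1 difference between genotypes in 2i + Vitamin C (0.176 points), whose interval included 0, changed sign in 2 of 6 alternatives. The Sycp1 difference in serum (1.07) became 9.55 over the sites of the 2 libraries and 8.79 at 5 reads, and the Sycp3 difference in 2i + Vitamin C (-1.81) became -5.13 within 500 bp. The mean change in WT cells, -23.9 points, became -30.1 with a minimum of 5 reads, -25.4 over sites covered in the 2 libraries compared, -22.5 within 500 bp, -21.2 with each site counted once and -20.8 for promoters with at least 3 sites, an alternative chosen after seeing the data. The minimum of 5 reads brought Dpep3 and Mov10l1 into this mean. The sites of the 2 libraries brought in Mov10l1 alone, at -64.7 points. Sycp1 was left out within 500 bp and by the minimum of 3 sites. At 5 reads, Sycp1 went from -45.4 to -21.1 points and Sycp3 from -5.53 to -7.73. The other promoters with shared sites kept their values, so the larger mean at 5 reads came with the added promoters. In KO cells, -32.5 became -39.3 at 5 reads, with Dpep3 and Mov10l1 added, and -35.3 over the sites of the 2 libraries, with Dpep3 added. It became -30.5 with reads pooled and -30.6 for promoters with at least 3 sites. Mov10l1 entered through a site 711 bp inside the gene, with 6 reads in KO 2i + Vitamin C. The promoters with shared sites kept their KO values over the sites of the 2 libraries. At 5 reads, only Sycp1 (-46.3 to -31.2 points) and Sycp3 (-12.1 to -15.7) changed among them. The mean KO minus WT difference in serum, 5.66 points, became 8.25 with each site counted once and 2.73 with reads pooled. The mean difference between the changes, -8.60, became -10.9 within 500 bp, -10.8 with each site counted once and -6.15 with reads pooled. Lost sites in WT cells went from 45 of 104 to 68 of 149 over the sites of the 2 libraries. Without a test, 17 of the 104 sites were higher by 20 points in KO serum, against 3 called, and 2 lower in KO 2i + Vitamin C, against 0. At 10 points with the test, 1 site was called there. The share of all sites that met these altered rules was not computed, so these counts have no background beside them. Leaving out the Asz1 site at 0, also chosen after seeing the data, moved Asz1 in KO cells to -71.6 points. No paired analysis was possible because each group is 1 library with no replicate number, and no library could be left out for the same reason. Depth limited Dpep3 and Mov10l1, which had 0 sites in all 4 libraries, and Sycp1, which had 1.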

Other observations

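Of the 29 other germline genes with at least 3 shared sites, 2, Hormad2 and Tuba3b, had promoters higher by at least 20 points in KO serum than in WT serum. Hormad2, which binds unsynapsed chromosome axes in meiosis, had 15.9% in WT serum and 37.5% in KO serum over 10 sites. In 2i + Vitamin C it had 2.28% and 1.08%. Tuba3b had 62.8% in WT and 84.4% in KO serum. In 2i + Vitamin C it had 11.8% and 5.81%.

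Among the 12 promoters of genes used in every cell, that of Pgk1, the X-linked glycolytic phosphoglycerate kinase, stood apart between the lines. Over 8 sites its mean was 6.66% in WT serum, 2.88% in WT 2i + Vitamin C, 83.8% in KO serum and 81.7% in KO 2i + Vitamin C. Hprt, also on the X chromosome, had 1.09%, 3.02%, 3.21% and 0.798% in the same order over 5 sites. The other 11 reference promoters lay between 0.299% (Gapdh, WT serum) and 6.31% (B2m, KO serum). Per the methods, clones were selected with puromycin after nucleofection with a plasmid named pPGK-puro. Whether reads from such a plasmid were counted at Pgk1 was not tested.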
